A study of Rattus norvegicus with 16 samples.

Results

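The Cyp2d subfamily of cytochrome P450 genes was described in 2 rat tissues, liver and bone marrow, after dosing with N-nitrosodiethylamine (NDEA), a nitrosamine that P450 enzymes oxidise to a DNA-alkylating agent. The members were the gene records named Cyp2d1, Cyp2d2, Cyp2d3, Cyp2d4 or Cyp2d5, whatever their values. Of these 5 names, 4 had a record among the 32623 genes of the table, and Cyp2d3 was not analysed here. All 4 members were tested in liver, and Cyp2d1 and Cyp2d4 alone had enough counts to be tested in marrow.

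Female Big Blue rats, which carry a transgenic vector with the cII and lacI reporter genes in every group, controls included, arrived at 6 weeks of age and were acclimated for 1 week. They received 10 mg/kg/day NDEA or 0 mg/kg/day by gavage for 28 days, and were sampled 3 days after dosing ended. Each dose group held 6 rats, and 4 libraries were sequenced in each of the groups liver NDEA, liver control, marrow NDEA and marrow control, 16 in all. The libraries read the 3′ ends of polyadenylated transcripts, so a count does not scale with gene length, and levels are given as CPM, counts scaled to the size of the library. The labels describe separate rats but tie no library to a rat or cage, so p-values measure the spread between libraries.

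P450 enzymes are haem proteins of the endoplasmic reticulum that insert oxygen into drugs, carcinogens, steroids and fatty acids, with electrons supplied by P450 reductase. The Cyp2d subfamily oxidises basic, nitrogen-containing drugs such as debrisoquine and bufuralol. Humans have a single working gene of this subfamily, CYP2D6, whereas rats have several, most of them expressed chiefly in hepatocytes. Cyp2d1 and Cyp2d2 encode major liver enzymes of this subfamily with overlapping drug substrates, and Cyp2d5 encodes a liver enzyme close in sequence to Cyp2d1. Cyp2d4 is also found in rat brain, where it acts on steroids as well as on drugs.

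The 4 genes lie together on chromosome 7. On the unnamed build of the deposited table they stand in the order Cyp2d4 (ENSRNOG00000032261, position 123599266), Cyp2d5 (ENSRNOG00000029128, 123616596), Cyp2d1 (ENSRNOG00000029179, 123625590) and Cyp2d2 (ENSRNOG00000008988, 123651827). Another record inside this stretch carried only a clone name, and it had 0 counts in all 16 libraries. RefSeq promoters matched all 4 members. They are shown because their letters set Cyp2d1 and Cyp2d5 beside each other, and Cyp2d2 and Cyp2d4 apart. Each runs 5′ to 3′ on the minus strand of GRCr8 over 300 bases, from 250 before the annotated start to 50 after it. The windows are chr7:115819232-115819531 for Cyp2d2, chr7:115793381-115793680 for Cyp2d1, chr7:115784438-115784737 for Cyp2d5 and chr7:115771772-115772071 for Cyp2d4. Capitals mark matches, on either strand, to TATAA (a core promoter element), CAAAGNNCA (a pattern found in the direct repeat bound by HNF4-type nuclear receptors) and GGGCGG (a GC box).
Cyp2d2: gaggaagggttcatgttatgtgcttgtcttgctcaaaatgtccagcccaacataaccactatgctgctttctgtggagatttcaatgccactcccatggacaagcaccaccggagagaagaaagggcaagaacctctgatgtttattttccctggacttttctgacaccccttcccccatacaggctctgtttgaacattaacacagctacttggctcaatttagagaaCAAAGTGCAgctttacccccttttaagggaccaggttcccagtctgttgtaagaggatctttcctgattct
Cyp2d1: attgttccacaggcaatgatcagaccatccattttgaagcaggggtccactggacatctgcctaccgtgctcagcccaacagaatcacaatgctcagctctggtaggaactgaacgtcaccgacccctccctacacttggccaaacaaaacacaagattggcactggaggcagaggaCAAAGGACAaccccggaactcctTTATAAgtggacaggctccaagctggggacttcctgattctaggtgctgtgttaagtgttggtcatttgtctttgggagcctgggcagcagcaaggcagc
Cyp2d5: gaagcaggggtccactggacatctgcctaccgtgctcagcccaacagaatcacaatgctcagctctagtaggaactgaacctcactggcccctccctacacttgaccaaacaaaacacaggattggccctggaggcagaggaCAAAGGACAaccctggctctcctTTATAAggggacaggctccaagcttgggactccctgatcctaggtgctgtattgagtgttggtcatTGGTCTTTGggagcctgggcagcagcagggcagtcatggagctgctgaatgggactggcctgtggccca
Cyp2d4: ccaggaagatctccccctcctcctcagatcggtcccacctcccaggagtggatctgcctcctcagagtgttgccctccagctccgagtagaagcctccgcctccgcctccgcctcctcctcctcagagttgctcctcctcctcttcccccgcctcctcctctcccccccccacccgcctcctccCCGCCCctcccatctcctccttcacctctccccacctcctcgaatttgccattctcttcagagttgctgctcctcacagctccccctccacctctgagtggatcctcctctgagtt

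The Cyp2d1 and Cyp2d5 promoters aligned over 264 columns with 246 identical (93.2%), while no other pair aligned over more than 23 columns. CAAAGNNCA was found in Cyp2d1, Cyp2d2 and Cyp2d5, against 6.08% of all 33469 rat promoters of that table. Its first base lay at -73 from the annotated start in Cyp2d1, -108 in Cyp2d5 and -21 in Cyp2d2, and Cyp2d5 held another match on the opposite strand at -19. TATAA was found in Cyp2d1 and Cyp2d5, each time as a site that reads on both strands, and in 26.2% of all promoters. GGGCGG was found in Cyp2d4 alone among the members, on the opposite strand, and in 33.1% of all promoters. GC content was 46.0% in Cyp2d2, 52.3% in Cyp2d1, 56.0% in Cyp2d5 and 64.0% in Cyp2d4. These patterns were picked after the sequences had been read, and a match describes letters, not binding.

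The library totals ran to between 5000844 and 6863592 counts in liver and between 2162182 and 5705705 in marrow. The labelled tissues were checked with Alb, the albumin gene, whose lowest liver value was 67800 CPM of all counts and whose highest marrow value was 0.438 CPM, and with Mpo, a myeloid granule enzyme that stood at 395 to 606 CPM in marrow and 0 in liver. Counts from mitochondrially encoded genes made up 20.09% to 22.36% of NDEA and 16.21% to 20.58% of control liver libraries, ranges that overlap at their edges.

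In liver, Cyp2d1, Cyp2d2 and Cyp2d5 fell with NDEA, and Cyp2d4 did not pass the test. The falls left 0.551 of the control level for Cyp2d1, 0.604 for Cyp2d5 and 0.693 for Cyp2d2. With limma-voom and Benjamini-Hochberg adjustment over 9668 tested genes, 6.61% of all genes were called at an adjusted p under 0.05 (639 genes), 3.74% as lower (362 genes) and 2.87% as higher (277 genes). Thus 3 of 4 members were called lower beside a background of 3.74%. The median log2 fold change was -0.63 over the 4 members and 0.01 over all tested genes. With libraries scaled by their totals alone, that median over all genes moved to 0.12 and the split of calls turned to 390 higher and 239 lower, while the same 3 members kept their calls.

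Cyp2d1 had 776, 620.0, 603 and 530.3 CPM in NDEA livers, against 1147, 1114, 1154 and 1132 CPM in control livers. Every NDEA library was below every control library, and the control libraries lay within a narrow band while the NDEA libraries were more spread. The means were 632 ± 104 CPM with NDEA and 1137 ± 17.7 CPM in controls (SD, n = 4 each). The log2 fold change was -0.86 (SE 0.10; 95% interval of the fold 0.475 to 0.639; limma adjusted p = 5.01e-06). Among the tested liver genes 7.29% had a lower log2 fold change than Cyp2d1.

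Cyp2d2, the most abundant member, had 1560, 1261, 1574 and 1283 CPM in NDEA livers, against 2004, 2328, 1986 and 1877 CPM in control livers. The groups did not overlap. The means were 1420 ± 171 CPM with NDEA and 2049 ± 194 CPM in controls (SD, n = 4 each), a log2 fold change of -0.53 (SE 0.10; fold interval 0.605 to 0.794; limma adjusted p = 0.000765). By mean CPM it ranked 70 of 9668 tested genes with NDEA and 60 in controls.

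Cyp2d5 had 237 CPM in the highest NDEA liver library and 186, 157 and 154 CPM in the others, against 259, 269, 376 and 307 CPM in control livers. The groups did not overlap, but the highest NDEA library came close to the lowest control library. The means were 184 ± 38.6 CPM with NDEA and 303 ± 52.9 CPM in controls (SD, n = 4 each), a log2 fold change of -0.73 (SE 0.15; fold interval 0.489 to 0.746; limma adjusted p = 0.00244). With the mitochondrial share as a covariate, an alternative chosen after seeing the data, the Cyp2d5 log2 fold change was -0.65 (SE 0.22). Its call was lost (limma adjusted p = 0.201). The SE was wider than without the covariate. The share was mostly higher with NDEA, so treatment and share are hard to separate. Under that covariate Cyp2d1 (-0.77, limma adjusted p = 0.00506) and Cyp2d2 (-0.59, limma adjusted p = 0.0235) kept their calls, and 148 genes in all were called.

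Cyp2d4 had 41.42, 32.47, 27.29 and 18.44 CPM in NDEA livers, against 27.64, 44.65, 27.95 and 36.69 CPM in control livers. The groups overlapped widely, and the highest 2 libraries came from different groups. The means were 29.9 ± 9.62 CPM with NDEA and 34.2 ± 8.11 CPM in controls (SD, n = 4 each), a log2 fold change of -0.23 (SE 0.26; limma adjusted p = 0.699). Its fold interval of 0.583 to 1.25 takes in the fitted folds of Cyp2d2 and Cyp2d5, so the data do not show that it kept its level. Across the members, 3 of 4 had groups that did not overlap with NDEA lower, against 5.98% of all tested genes.

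**Figure D1:**
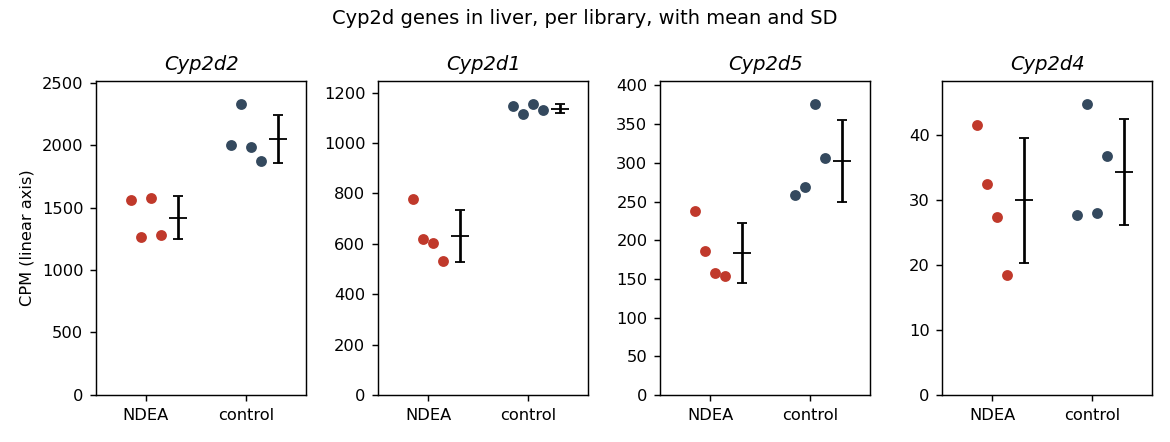
Each panel plots CPM (linear axis from 0) of 1 Cyp2d gene in the 4 NDEA and 4 control liver libraries as points, with the group mean and SD as a bar beside them. NDEA points lie below all control points for Cyp2d2, Cyp2d1 and Cyp2d5, and the groups overlap for Cyp2d4.

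The order of levels was Cyp2d2, Cyp2d1, Cyp2d5 and Cyp2d4 in NDEA and control livers alike, and neighbours in that order did not overlap within either group. Summed over the 4 members, the level was 2615, 2099, 2362 and 1986 CPM in NDEA livers, against 3437, 3756, 3544 and 3353 CPM in control livers. The mean sum was 2266 ± 281 CPM with NDEA and 3522 ± 174 CPM in controls (SD, n = 4 each), a ratio of 0.643. Members with similar transcripts may share or lose reads in counting, so the split between Cyp2d1 and Cyp2d5 may be less certain than this sum. The sum moves only with reads gained or lost by the subfamily as a whole. Transcript sequences were not compared here.

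Cyp2d2 gave 62.7% ± 3.44 of the summed Cyp2d counts with NDEA and 58.1% ± 2.82 in controls (SD, n = 4 each). Cyp2d1 gave 27.9% ± 2.08 with NDEA and 32.3% ± 1.85 in controls. The share of Cyp2d5 was 8.09% ± 1.11 with NDEA and 8.61% ± 1.58 in controls, and that of Cyp2d4 was 1.30% ± 0.316 with NDEA and 0.969% ± 0.203 in controls. Whether 2 members changed unequally was tested on their log2 ratio within each library, over all 6 pairs. The Cyp2d1 to Cyp2d2 log2 ratio was -1.17 ± 0.19 with NDEA and -0.85 ± 0.15 in controls (SD, n = 4 each), a difference of -0.33 (exact two-sided permutation p = 0.0857, adjusted p = 0.171). The largest difference was that of Cyp2d1 against Cyp2d4, -0.63 (exact permutation p = 0.0571, adjusted p = 0.171). For Cyp2d1 against Cyp2d5 it was -0.13 (exact permutation p = 0.343, adjusted p = 0.4). No pair passed, with adjusted p between 0.171 and 0.4 in exact permutation tests, and 4 libraries against 4 can give no raw p below 0.0286.

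**Figure D2:**
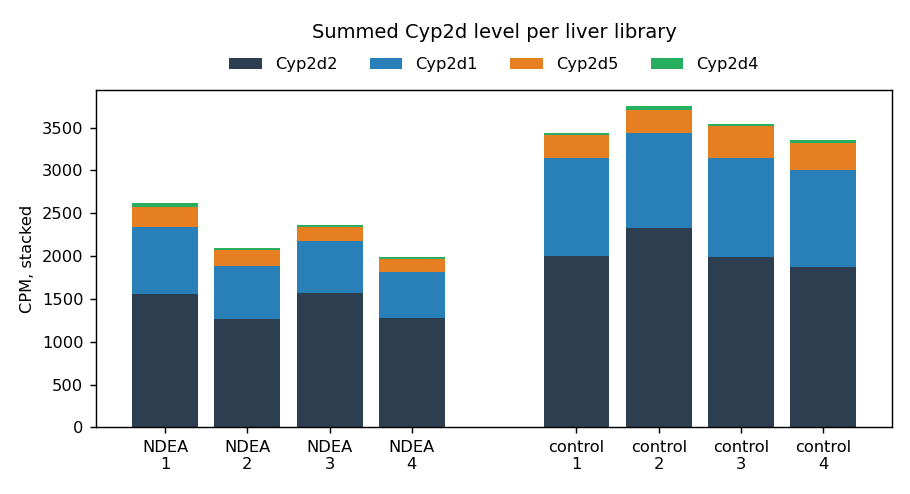
Stacked bars give the CPM of Cyp2d2, Cyp2d1, Cyp2d5 and Cyp2d4 in each of the 4 NDEA and 4 control liver libraries. The summed level runs from 1986 to 2615 CPM in NDEA livers and from 3353 to 3756 CPM in control livers, with Cyp2d2 the tallest part of every bar.

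In bulk liver, fewer hepatocytes and less Cyp2d RNA per hepatocyte cannot be told apart. Hepatocyte markers gave a summed scaled level of 120500 to 143400 CPM in NDEA livers and 128700 to 155700 CPM in control livers, ranges that overlap. As CPM of all counts they summed to 128400 to 142700 with NDEA and 124000 to 147300 in controls, also overlapping. The sums of other cell types below are CPM of all counts. None of the 16 hepatocyte markers was at 0. Of these markers 4 rose, among them Apoa1 (1.67-fold), Ttr (1.35-fold) and Arg1 (1.35-fold). The 4 that fell were Tat (0.660-fold), Apoh (0.705-fold), Ass1 (0.772-fold) and Alb (0.842-fold, limma adjusted p = 0.0325). Alb was the largest part of the scaled marker sum, with 70030 of 131900 CPM on average with NDEA and 83520 of 142200 CPM in controls. A ratio to these markers therefore leans on a gene that was itself called lower. Per 1000 CPM of hepatocyte markers the members held 17.1 ± 0.882 CPM with NDEA and 24.9 ± 3.01 CPM in controls (SD, n = 4 each), a ratio of 0.687. These values ran from 16.4 to 18.2 with NDEA and from 22.1 to 29.2 in controls, without overlap.

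Among marker lists of other cell types, those of cycling cells and of stellate cells and fibroblasts had calls in 1 direction, higher with NDEA. Of 8 markers of cycling cells 7 rose, and their summed level was 194 to 331 CPM of all counts in NDEA livers against 8.70 to 49.4 CPM in control livers. By fitted fold change the 3 that rose most were Ccna2, Top2a and Ccnb1, all of them low in control livers, so their levels are given in place of folds. Ccna2 averaged 5.98 CPM with NDEA and 0.263 CPM in controls, where 3 of the 4 libraries had 0 counts. Top2a averaged 72.0 CPM with NDEA and 7.46 CPM in controls, and Ccnb1 averaged 19.1 CPM with NDEA and 1.84 CPM in controls. Of 6 tested of 8 stellate cell and fibroblast markers, Dcn (2.23-fold) and Col3a1 (1.72-fold) rose, and the list summed to 422 to 505 CPM with NDEA and 198 to 301 CPM in controls, with Col1a2 at 0 in all liver libraries. The 8 cholangiocyte markers summed to 25.1 to 45.7 CPM with NDEA and 7.46 to 16.2 CPM in controls, with Krt19 at 0 throughout and neither of the 2 tested markers called. Of 10 macrophage markers, Marco rose (1.56-fold) and Vsig4 fell (0.521-fold), and the list summed to 742 to 853 CPM with NDEA and 627 to 767 CPM in controls. Of 8 named lymphocyte markers 7 had a record and 1 was tested and not called, and they summed to 9.43 to 16.5 CPM with NDEA and 1.69 to 6.44 CPM in controls. Of 7 named endothelial markers 6 had a record and 4 were tested, none of them called, and they summed to 231 to 261 CPM with NDEA and 216 to 246 CPM in controls. Of 8 markers of marrow myeloid cells 2 were tested and not called, with Ctsg, Elane, Ltf, Mpo and Prtn3 at 0, and they summed to 2.62 to 14.2 CPM with NDEA and 3.91 to 15.7 CPM in controls. Of 7 recorded erythroid markers 4 were tested and not called, and they summed to 1086 to 3984 CPM with NDEA and 1453 to 3155 CPM in controls. The part of these cells, or of the mitochondrial share, in the Cyp2d result was not tested.

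Other drug-oxidising P450 genes of families 1 to 3 changed in both directions. Of 32 records 21 were tested, of which 10 fell and 4 rose, with a median log2 fold change of -0.48. Among all tested liver genes, 3.74% were called lower and 2.87% higher. The 16 tested Cyp2 genes outside Cyp2d gave 8 falls and 2 rises and a median of -0.58, beside -0.63 for the Cyp2d members. The falls of Cyp2d1, Cyp2d5 and Cyp2d2 therefore lay inside the range of the other P450 genes. The 4 largest falls were those of Cyp3a9, at 1.02 CPM with NDEA and 27.9 CPM in controls (0.0295-fold), Cyp2c7 (0.235-fold), Cyp2c12 (0.419-fold) and Cyp1a2 (0.426-fold). Cyp2c7 and Cyp2c12 are P450 enzymes of rat liver with higher levels in females, and Cyp1a2 oxidises aromatic amines. Among the rises, Cyp2c13, a male-specific enzyme in rats, had 649 counts over the NDEA livers and 0 over the control livers, at least 211-fold higher when the control group is set to its floor of 3 counts. Cyp1a1, an aryl hydrocarbon receptor target, stood at 11.4 CPM with NDEA and 0.129 CPM in controls. Cyp3a18 (2.29-fold) and Cyp2c22 (1.99-fold) rose as well. With the mitochondrial share as a covariate, 6 of these P450 genes were called lower and 1 higher. Without any 1 NDEA liver library the count of rises was 2, since Cyp2c13 and Cyp1a1 then no longer pass the filter on low counts.

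**Figure D3:**
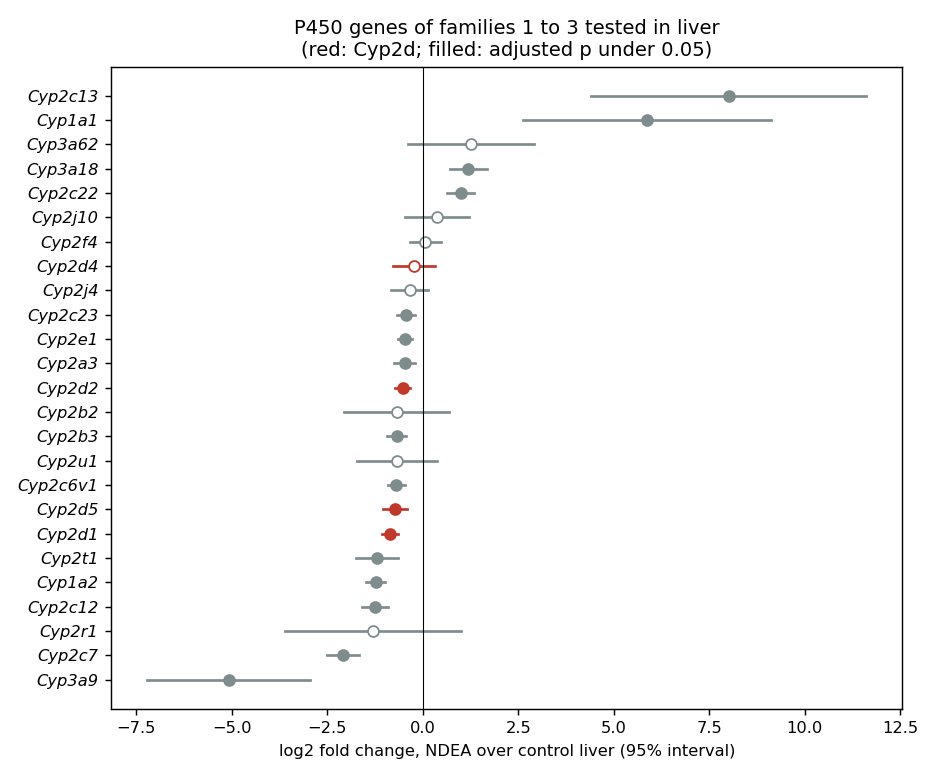
Points give the log2 fold change of NDEA over control liver (x axis, with 95% intervals) for each tested P450 gene of families 1 to 3, Cyp2d members in red, filled where the adjusted p was under 0.05. The red points sit among the falling genes, between -0.86 and -0.23, while Cyp3a9 at the bottom end and Cyp2c13 at the top end lie far outside them.

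Genes of P450 partners, of haem synthesis and of haem breakdown (the haem oxygenases) did not move as a block. Of 15 tested genes, 1 rose and 3 fell, beside 2.87% of all tested liver genes called higher and 3.74% called lower. The median log2 fold change of the 15 was -0.15. Por, the P450 reductase, rose 1.71-fold, with 648 ± 151 CPM in NDEA livers and 389 ± 140 CPM in control livers (SD, n = 4 each; limma adjusted p = 0.00656). The genes that fell were Cyb5r3, the cytochrome b5 reductase (0.489-fold, limma adjusted p = 1.65e-05), Cyb5b, the cytochrome b5 of the outer mitochondrial membrane (0.568-fold, limma adjusted p = 0.000129), and Hmox2, a haem oxygenase (0.673-fold, limma adjusted p = 0.0441). Of 18 tested transcription regulators linked to Cyp2d genes, from 20 named, none rose and 2 fell, beside the same shares over all genes. Their median log2 fold change was 0.01. Hnf4a, the nuclear receptor that drives many hepatocyte genes including human CYP2D6, had 207 ± 19.9 CPM with NDEA and 349 ± 55.4 CPM in controls (SD, n = 4 each; 0.596-fold, limma adjusted p = 0.000429). Onecut1, a liver transcription factor, had 160 ± 51.2 CPM with NDEA and 326 ± 102 CPM in controls (SD, n = 4 each; 0.485-fold, limma adjusted p = 0.00378). Whether either bears on the Cyp2d genes was not tested.

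Most genes around the cluster were not called, which also held for tested liver genes in general, of which 6.61% were called. Of the 20 nearest tested genes, 10 on each side and spanning 1277 kb in all, 0 rose and 2 fell. Their median log2 fold change was 0.13. Over all tested liver genes 2.87% were called higher and 3.74% lower. Ndufa6, a respiratory chain subunit next to Cyp2d4, was at 220 ± 17.0 CPM with NDEA and 294 ± 16.1 CPM in controls (SD, n = 4 each; 0.746-fold, limma adjusted p = 0.0242). Cyb5r3, described above, was the sixth gene beyond Cyp2d2. The nearest other genes did not pass: Smdt1 before the cluster (0.783-fold, limma adjusted p = 0.543), and Tcf20 and Nfam1 after it. Tcf20 was low, with means of 2.285 CPM with NDEA and 2.231 CPM in controls. Its fitted fold of 0.475 was uncertain (SE 1.244 on the log2 scale, limma adjusted p = 0.702). Nfam1 had a fold of 2.18 (limma adjusted p = 0.327).

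**Figure D4:**
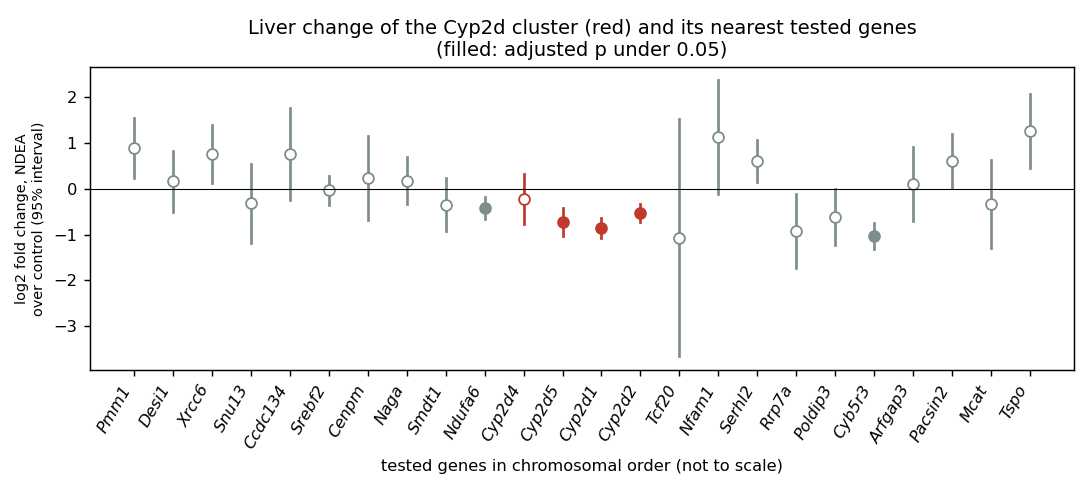
Points give the log2 fold change of NDEA over control liver (y axis, with 95% intervals) for the 4 Cyp2d genes in red and the 10 nearest tested genes on each side, in chromosomal order and not to scale, filled where the adjusted p was under 0.05. Beyond the 3 filled red points, Ndufa6 and Cyb5r3 are the filled ones.

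Within treatment groups the members varied together to different degrees. With group means removed, Pearson's r over the 8 liver libraries was 0.76 for Cyp2d1 with Cyp2d5, 0.72 for Cyp2d1 with Cyp2d4, 0.52 for Cyp2d2 with Cyp2d4, 0.43 for Cyp2d1 with Cyp2d2, 0.43 for Cyp2d4 with Cyp2d5 and 0.04 for Cyp2d2 with Cyp2d5. Cyp2d1 ran only from 1114 to 1154 CPM in controls, so its r values lean on the NDEA libraries. Among those, library 1 was the highest for Cyp2d1 (776 CPM), Cyp2d5 (237 CPM) and Cyp2d4 (41.42 CPM). Libraries share depth and scaling, and these values are a description. By the same measure, among tested genes whose average log2 CPM reached 2, the genes most like Cyp2d1 were Slc30a1 (0.990), Crym (0.978) and Acot5 (0.969). Those most like Cyp2d2 were Aspg (0.972), Glrx (0.970) and Pdhb (0.963). Those most like Cyp2d5 were Ampd2 (0.960), Adh5 (0.959) and Prdx2 (0.958), and those most like Cyp2d4 were Eif2s2 (0.991), Cwc27 (0.969) and Map4 (0.966). High values are found easily among so many genes over 8 libraries.

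In bone marrow the Cyp2d genes were near the limit of counting, and no change with NDEA was detectable. Cyp2d1 had 16, 6, 19 and 0 counts in marrow NDEA libraries, against 5, 35, 2 and 22 counts in marrow control libraries. The groups overlapped widely. Its mean level was 2.17 ± 1.97 CPM with NDEA and 3.17 ± 2.45 CPM in controls (SD, n = 4 each), a log2 fold change of -1.35 (SE 1.39; 95% interval -4.27 to 1.57; limma adjusted p = 0.652). Cyp2d4 had 4, 33, 3 and 24 counts in marrow NDEA libraries, against 13, 30, 17 and 20 counts in marrow control libraries. The control libraries lay inside the range of the NDEA libraries. Its mean level was 2.96 ± 2.54 CPM with NDEA and 4.61 ± 0.910 CPM in controls (SD, n = 4 each), a log2 fold change of -0.97 (SE 0.92; 95% interval -2.91 to 0.96; limma adjusted p = 0.622).

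Cyp2d2, the most abundant member in liver, had 2 counts over the marrow NDEA libraries and 1 count over the marrow control libraries. Cyp2d5 had 10 counts in marrow NDEA library 1 and 0 in all other marrow libraries. Over the 4 marrow control libraries 0 counts allow up to 0.169 CPM of all counts (3 counts, for counting error only). Neither gene passed the filter on low counts in marrow. By limma-voom 0% of the 9239 tested marrow genes were called, 14.5% (1336 genes) had an unadjusted p under 0.05, and the smallest adjusted p was 0.247. That count was 0 as well by limma-trend and with sample quality weights, but 323 without marrow control library 3. Marrow counts from mitochondrially encoded genes were 8.37% to 15.8% with NDEA and 6.41% to 13.0% in controls.

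The order of the members differed between the tissues. Cyp2d4, the least abundant member in liver at 29.9 CPM with NDEA and 34.2 CPM in controls, had the highest mean in marrow at 2.96 CPM with NDEA and 4.61 CPM in controls. Its marrow libraries overlapped with those of Cyp2d1 in each group. The tissues were scaled separately, so levels set across them are approximate. The difference in the NDEA effect, liver minus marrow, was 0.39 for Cyp2d1 on the log2 scale (SE 1.10; 95% interval -1.88 to 2.66; limma adjusted p = 0.908) and 0.88 for Cyp2d4 (SE 0.90; 95% interval -0.98 to 2.74; limma adjusted p = 0.674). In that comparison 2.28% of 11261 genes were called. Intervals this wide take in the whole liver effect, so a difference between tissues was not detectable at this depth. For Cyp2d1 even its sign turned, to -0.11 without marrow control library 2 and to -0.77 without marrow NDEA library 4.

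**Figure D5:**
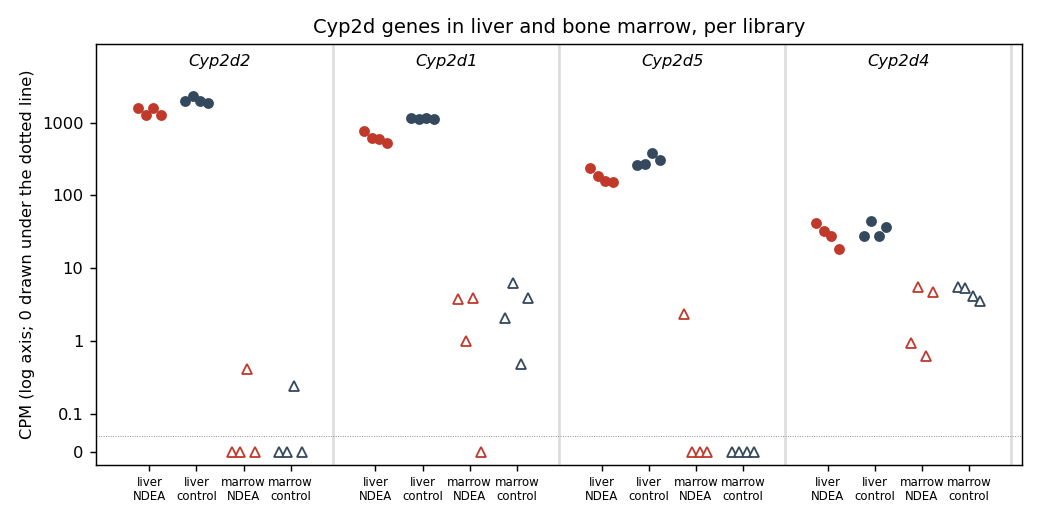
CPM of each Cyp2d gene on a log axis in every liver library (filled circles) and marrow library (open triangles), with NDEA left of control within each tissue and 0 drawn below the dotted line. Liver points lie between 18.4 and 2328 CPM, and marrow points lie far lower, many of them at 0 for Cyp2d2 and Cyp2d5.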

How the data were processed

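The authors deposited raw counts of reads per gene for 16 libraries, with 4 per group. Per the labels' protocols the kit was a QuantSeq 3′ kit, and the authors ran STAR and DESeq2 (versions unnamed) per the submitters' processing notes. For the counting tool, build and annotation, the sources used here give nothing. Of 32635 lines of the deposited table, 15591 opened with a quote and 12 continued a broken record. The lines were rejoined into 32623 gene records of whole counts. Of these records 16313 carried group totals, which equalled the sums with 0 mismatches. The totals of a record were compared as a set, so their order was not checked, and the remaining records could not be checked this way. Because pieces of broken lines fall under the count columns, the deposited unit was recorded as other, and the planned quasi-likelihood count test was replaced by limma-voom (R 4.3.3, limma 3.58.1).

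Each tissue was fitted alone with treatment as the only term. Kept genes had 15 counts in total and, in 4 or more libraries, the CPM that equals 10 counts at median depth. Scaling used the trimmed mean of M values (trims 0.3 and 0.05), and log2 CPM used a prior of 0.5 counts. P-values were adjusted by Benjamini-Hochberg over all tested genes, with a threshold of 0.05. The tissue difference was the interaction term over 16 libraries. Pairs of members were tested by exact two-sided permutation of log2 ratios (0.5 added) with adjustment over 6 pairs. The script was tested on simulated data. Counting error floors are 3 counts, and the labels name no molecular identifiers.

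The members and gene lists were chosen with earlier results of these data known. Named genes are all members and up to 4 called genes each way with the largest change per list (3 for marker lists). Alb was named as well, as the largest part of the hepatocyte marker sum. All called neighbours with the 2 nearest on each side, and the 3 genes most like each member, are also named. Promoters come from RefSeq (GRCr8), aligned locally with Biopython 1.88, and their patterns were chosen after reading them. Other scalings, filters, weights, fits, left-out libraries and a replicate block were tried as alternatives.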

Additional observations from a re-analysis of the deposited data

Results flagged for a closer look

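Of 26 groups of 4 libraries examined for a library standing apart from the other 3, 3 stood out. Chance flags about 1 in 20 groups of continuous values, but that rate does not hold here. All 3 are marrow groups of members that failed the filter on low counts, in which the other 3 libraries had 0 counts, so any count in the remaining library would stand out. Cyp2d5 was at 2.32 CPM (10 counts) in marrow NDEA library 1. Cyp2d2 was at 0.416 CPM (2 counts) in a marrow NDEA library and at 0.242 CPM (1 count) in a marrow control library.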

How the results depend on the processing

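Of 352 values recomputed under alternatives, 323 kept their direction and their side of the threshold, or stayed within the limit set for counts. Cyp2d1 and Cyp2d2 kept their liver calls under all 9 other settings and 8 left-out libraries run for them, and Cyp2d5 under all but the mitochondrial covariate (-0.65). Without each liver library in turn, the log2 fold change ran from -0.96 to -0.77 for Cyp2d1, -0.58 to -0.46 for Cyp2d2, -0.85 to -0.61 for Cyp2d5 and -0.41 to -0.01 for Cyp2d4. In marrow, Cyp2d1 and Cyp2d4 rest on at most 35 counts in any library. The planned quasi-likelihood count test was not run.

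Liver genes called lower numbered 239 with library totals alone, 225 with all 16 libraries in 1 fit and 95 with the mitochondrial covariate, which gave 53 higher and 148 in all. Without each library in turn, 441 to 600 were called, 175 to 238 higher and 259 to 368 lower, with 175 higher without liver control 3. Other P450 genes called higher numbered 2 to 4 without each library and 1 with the mitochondrial covariate, and those called lower numbered 8 to 10 and 6 in the same settings. The drop to 2 without an NDEA library followed from the filter on low counts, which Cyp2c13 and Cyp1a1 then no longer pass. The causes of the other shifts were not tested. Marrow calls numbered 2 without the filter (2 lower), 69 with all 16 libraries in 1 fit (12 higher, 57 lower), 1 with the mitochondrial covariate (1 lower) and 0 to 323 without each library in turn (0 to 114 higher, 0 to 209 lower). The Cyp2d1 difference between tissues turned to -0.072 with quality weights and ran from -0.77 to 1.09 without each library. The summed liver level was -0.53 on the log2 scale with library totals and -0.71 to -0.57 without each library.

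Within a tissue, correlations between libraries gave no sign that replicate numbers pair NDEA with control libraries, but a replicate block raised the number of calls. Deviations of same-numbered libraries from their group means correlated, across genes, between -0.01 and 0.01 in liver. In marrow they correlated between -0.01 and 0.06. Whether same-numbered liver and marrow libraries come from 1 rat is not given by the labels and was not checked. The fit of the tissue difference treated all 16 libraries as independent. With a replicate block, log2 fold changes in liver were -0.85 for Cyp2d1, -0.53 for Cyp2d2, -0.18 for Cyp2d4 and -0.73 for Cyp2d5. Under that block 732 liver genes were called, against 639 without it. In marrow 289 genes were called (109 higher, 180 lower), against 0 without it. Whether the numbers mark a pairing was therefore not settled. For the pairs, 4 blocks can give no p below 0.125 in an exact sign-flip test.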

Other observations

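Of 14 named drug oxidases outside the P450 families, 10 were tested in liver, 1 rose and 1 fell, with a median log2 fold change of -0.25. The shares over all tested liver genes were 2.87% called higher and 3.74% called lower. Fmo1, a flavin monooxygenase that oxidises nitrogen and sulphur atoms of drugs, rose 1.92-fold, with 113 ± 7.44 CPM in NDEA livers and 62.0 ± 19.0 CPM in control livers (SD, n = 4 each; limma adjusted p = 0.00308). Adh5, the glutathione-dependent formaldehyde dehydrogenase, fell to 0.717 of its control level, with 213 ± 25.6 CPM in NDEA livers and 297 ± 30.1 CPM in control livers (SD, n = 4 each; limma adjusted p = 0.0168). The other 8 enzymes did not pass the test. Among them Aox3, an aldehyde oxidase named after its values were seen, had 1.40 ± 1.58 CPM in NDEA livers and 32.9 ± 19.7 CPM in control livers (SD, n = 4 each; limma adjusted p = 0.0738).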
